A study of Mus musculus with 13 samples.

Results

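The Foxp2-Gadd45a spots were 200 of 1963 Visium spots on 2 sections of mouse brain. They were chosen by 4 genes: in each section library, the 100 spots with the highest summed level of Foxp2, Syt6, Gadd45a and Rell1 were taken, among spots with a total of at least 2000 counts. The 2 libraries together held 1973 spots, and 10 of them fell under that total. Each Visium spot takes up the RNA of whatever lies above it, which may be several cells of different types or pieces of them. Both sections are from wild-type mice, of no named strain, and were cut at 10 µm from frozen brain. They are called S4 and S8 here, after the numbers of their libraries. No treatment, age or Cre line is named, and nothing says whether the sections came from separate animals. The p-values for spots rest on how the difference between chosen and other spots varies over 2 sections that may share a brain. That spread is largely shared over all genes. The same study dissociated neurons, pooled over slices, from the retrosplenial cortex of wild-type B6 mice, in 11 samples from 3 animals, and these 765 cells served as an assay that the choice of spots did not use.

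Foxp2 is a forkhead transcription factor, Syt6 a synaptotagmin of the vesicle machinery, Gadd45a a small protein induced by growth arrest and DNA damage, and Rell1 a relative of the TNF receptor family member Relt. Foxp2 and Syt6 are known markers of corticothalamic neurons, the excitatory cells of cortical layer 6 that send axons to the thalamus and feed back on the relay cells there. Below them lies layer 6b, a thin sheet of neurons at the border of the white matter, which is itself made of myelinated axons and the oligodendrocytes that wrap them. A spot over deep cortex can therefore hold corticothalamic neurons, layer 6b neurons and myelin side by side.

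The values that chose the spots are given as a description. Levels are in CPM, the number of counts in 1e+06 of a spot's or a group's total, and for single genes in the tests that total is scaled by TMM. The summed level of the 4 genes had a median of 328.3 CPM in the chosen spots of S4 and 268.2 CPM in those of S8. The last spot taken in S4 held 170.1 CPM from 1 count and the first left out held 163.1 CPM from 2 counts in a larger total. In S8 the last spot taken held 164.4 CPM and the first left out 162.3 CPM, each from 1 count. The choice thus rested on few molecules. In S4, 14 chosen spots had 1 count of the 4 genes, 36 had 2 and 50 had 3 or more, and in S8 the numbers were 32, 36 and 32. At least 2 of the 4 genes were present in 69 chosen spots of S4 and 56 of S8, and all 4 in 2 and 1. Gadd45a was the gene most often present, in 71 chosen spots of S4 and 63 of S8, and Syt6 the least often, in 32 and 27. Foxp2 was present in 52 and 39 and Rell1 in 43 and 42. Outside the choice, 160 of 917 spots in S4 and 112 of 846 in S8 still held at least 1 count of these genes.

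Each gene was then left out of the sum in turn, so that its own level had no part in which spots the other 3 chose. The rule with its 4 genes was itself set with earlier results of these data known, so these values are not independent of the data. All 4 genes were higher in the chosen spots of both sections. Foxp2 stood at 63.2 CPM in spots chosen without it against 5.66 CPM in the other spots of S4, and at 38.1 against 7.01 CPM in S8, which is 11.2-fold and 5.43-fold. Gadd45a differed 6.97-fold and 4.64-fold, Syt6 5.44-fold and 3.97-fold, and Rell1, the least marked of the 4, 3.91-fold and 2.97-fold. Foxp2 had a count in 33 of the 100 spots chosen without it in S4 and in 19 in S8, whereas 3.93% and 3.90% of the other spots had one. With 2 sections against 2, a permutation test could not reach 0.05, so these stand as values with no test.

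**Figure D1:**
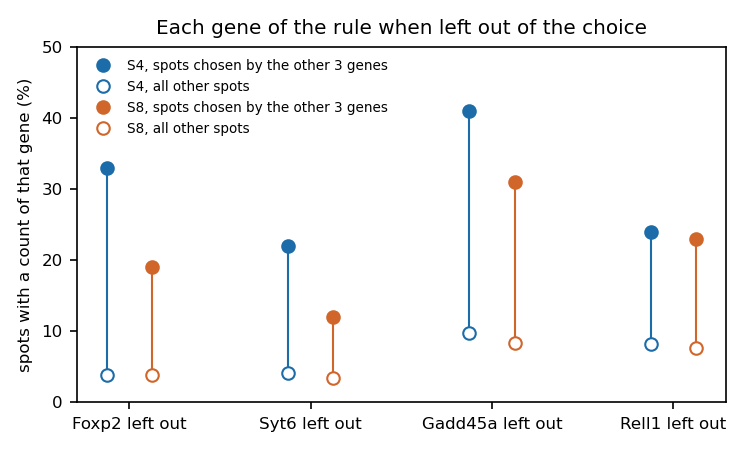
Share of spots with a count of each gene of the rule (%), for spots chosen by the other 3 genes (filled) and all other spots (open), in sections S4 and S8. For Foxp2, Syt6, Gadd45a and Rell1 the filled point lies above the open one in both sections, with Gadd45a reaching 41% in S4 and 31% in S8.

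The sections held 8436518 and 6389042 counts in all. The chosen spots were of similar depth to the rest, with median totals of 8656.5 against 8217 counts in S4 and 6970 against 6695.5 in S8. Summed, they gave 854537 counts in S4 and 697353 in S8, against 7577305 and 5688739 in the other spots. Mitochondrial transcripts made up 9.89% of their counts against 11.03% elsewhere in S4, and 8.65% against 9.40% in S8. The predicted RNA Gm42418 took 2.23% against 2.42% in S4 and 6.99% against 8.63% in S8. Of the spot barcodes, 162 occurred in both libraries, none of them (0) chosen in both.

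Against all other spots, the Foxp2-Gadd45a spots were marked by genes of deep cortical neurons and of myelin. Of 12109 genes tested by edgeR on counts summed per section, 161 (1.33%) were called higher and 133 (1.1%) lower at an adjusted p under 0.05, with the section as a block and the 4 choosing genes left out. All 161 and all 133 had the same direction in both sections. The changes were modest in size: the median log2 fold change was 0.85 among the genes called higher and -0.96 among those called lower, and 59 and 62 genes passed a change of at least 1. Only 1 residual degree of freedom was left per gene, so each test borrows the spread of all genes. Without the block the calls fell to 24 higher and 5 lower, and DESeq2 called 53 and 15.

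**Figure D2:**
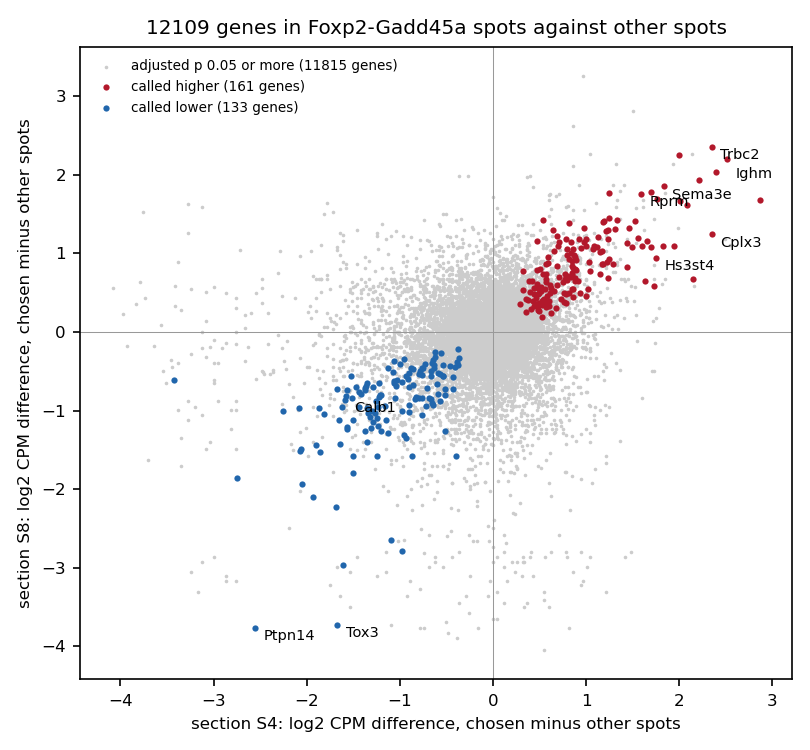
Log2 CPM difference between the 100 chosen and all other spots in S4 (x axis) and S8 (y axis) for each of the 12109 genes tested; red points are the 161 called higher, blue points the 133 called lower. Trbc2 and Ighm lie at the upper right, and all called genes lie in the quadrants where both sections have the same sign.

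Most markers of layer 6 corticothalamic neurons rose. Of 11 such genes, 7 were called higher and none (0) lower, and 10 were higher in both sections. Their median log2 fold change was 1.09, against 9.8e-05 over all genes tested. Of all 12109 genes tested, 3333 were higher and 3551 lower in both sections. Of the 11, DESeq2 called 5 higher and edgeR without the block 4. Rprm, a mediator of cell cycle arrest, stood at 141 CPM in the chosen spots against 46.3 CPM elsewhere in S4. In S8 it stood at 218 against 64.0 CPM. The log2 fold change was 1.69 ± 0.12 (edgeR estimate ± SE, adjusted p = 1.8e-07). Tle4, a transcriptional co-repressor, stood at 149 against 41.6 CPM and at 105 against 48.7 CPM (1.52 ± 0.16, adjusted p = 2.9e-05). Hs3st4, which adds a sulfate group to heparan sulfate, stood at 203 against 59.7 CPM and at 112 against 57.8 CPM (1.44 ± 0.16, adjusted p = 3.9e-05). All 3 were among the genes higher in both sections. Zfpm2, a cofactor of GATA factors, Igfbp4, which binds insulin-like growth factors, and Tbr1, a T-box factor of deep layer neurons, rose by 1.30 ± 0.27, 1.09 ± 0.13 and 0.98 ± 0.11. Crym, a binder of thyroid hormone, rose least, by 0.45 ± 0.10. The 4 not called were Sla (1.05), Thsd7b (1.20), Sox5 (0.32) and Ntsr1 (-0.19). Ntsr1, the neurotensin receptor often used to mark these cells, had 2 counts in the chosen spots of S4 and 8 in those of S8, or 2.34 against 7.02 CPM and 11.5 against 7.67 CPM, so the sections had opposite directions.

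Some layer 6b genes rose as well. Of 7 tested among 9 listed, 3 were called higher and none (0) lower. Cplx3, a complexin of the synaptic release machinery, stood at 77.3 against 14.7 CPM in S4 and 47.3 against 19.6 CPM in S8 (log2 fold change 1.92 ± 0.24, edgeR adjusted p = 0.00012). Nxph3, a secreted ligand of neurexins, stood at 52.7 against 15.2 CPM and at 67.3 against 20.5 CPM (1.75 ± 0.19). Ccn2, a matrix-associated growth factor, rose by 1.4 ± 0.20. Nxph4 (1.43), Lpar1 (0.71), Drd1 (0.07) and Moxd1 (-0.55) did not pass the test. Among the chosen spots, the summed corticothalamic level had a Spearman rank correlation with the layer 6b sum of 0.42 over the 100 spots of S4 and 0.49 over those of S8. With the oligodendrocyte genes it was 0.34 and 0.51, with immediate early genes 0.29 and 0.24, and with superficial layer genes -0.23 and -0.31. These correlations describe spots of the same library that differ in depth. Totals of the chosen spots ran from 2718 to 15022 counts in S4 and from 2999 to 10188 in S8. The layer 6b sum was 0 in 36 chosen spots of S4 and 42 of S8. The part of depth in these correlations was not tested.

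Among the genes with the smallest adjusted p were Trbc2 and Ighm, the constant regions of the T cell receptor beta chain and of the immunoglobulin mu heavy chain. Trbc2 stood at 137 CPM in the chosen spots of S4 and 138 CPM in those of S8, against 26.4 CPM in the other spots of each section. Its log2 fold change was 2.38 ± 0.14 (edgeR adjusted p = 3.6e-08). Ighm stood at 125 against 21.5 CPM in S4 and at 106 against 22.6 CPM in S8, which is 2.41 ± 0.15 on the log2 scale (adjusted p = 3.8e-08). The other spots of the 2 sections were nearly equal for both genes, and the chosen spots lay far above them. Trbc2 had a count in 59 of 100 chosen spots against 153 of 917 others in S4, and in 47 of 100 against 99 of 846 in S8. With every spot thinned to 2000 counts, those shares were 22% against 5.23% and 24% against 4.02%. A list of 16 other lymphocyte genes, chosen after these values were seen, was rare in both groups of spots. The chosen spots held 3 counts of these genes in S4 and 4 in S8. In sum that is 3.51 and 5.74 CPM, against 5.15 and 5.80 CPM elsewhere. Cd3e, Cd3g, Cd2 and Cd8a had 0 counts in all spots tested. Trbc1, whose sequence is close to that of Trbc2, also had 0. The list did not hold the B cell adaptor gene Blnk, which was called higher. Blnk had 18 counts in the chosen spots of S4 and 12 in those of S8. It stood at 21.1 against 6.11 CPM in S4 and at 17.2 against 4.64 CPM in S8.

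The other genes with the largest rises were counted more rarely. Serinc2, a serine incorporator, had the largest log2 fold change of the called genes, 2.66 ± 0.50, from 15 and 6 counts in the chosen spots. Sptbn5, a beta spectrin of the membrane skeleton, stood at 31.6 against 5.59 CPM in S4 and 22.9 against 5.17 CPM in S8 (2.35 ± 0.32, edgeR adjusted p = 0.00026). Col5a1, a fibrillar collagen chain, stood at 32.8 against 6.63 CPM and 44.4 against 11.2 CPM (2.13 ± 0.26, adjusted p = 9.8e-05). Myh3, the embryonic skeletal myosin heavy chain, rose by 2.24 ± 0.37. Arhgap25, a GTPase-activating protein for Rac, rose by 1.94 ± 0.31. Spsb1, an adaptor of ubiquitin ligases, rose by 1.93 ± 0.35 and Rai14, an actin-binding protein, by 1.82 ± 0.32. Blnk, the B cell linker adaptor, rose by 1.82 ± 0.35. Rai14 was uneven, with 42 counts in the chosen spots of S4 and 8 in those of S8.

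Pcp4, a small calmodulin-binding protein listed here with layer 5, was the most abundant of the neuronal genes that rose. It stood at 1445 against 535 CPM in S4 and 1173 against 537 CPM in S8, which is 1.29 ± 0.08 on the log2 scale (edgeR adjusted p = 3.8e-08). The rest of the layer 5 list did not follow it: of 9 genes tested, Etv1, an ETS transcription factor, fell by 1.21 ± 0.15 on the log2 scale and Parm1 by 0.72 ± 0.17. Fezf2 (0.08) and Bcl11b (0.38), the transcription factors of layer 5 neurons that project below the cortex, were not called.

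Among guidance molecules, a ligand rose and its receptor fell. Sema3e, a secreted semaphorin, stood at 64.5 against 17.7 CPM in S4 and 53.0 against 14.3 CPM in S8 (log2 fold change 1.87 ± 0.20, edgeR adjusted p = 2.5e-05). Plxnd1, the plexin that binds Sema3e, stood at 14.1 against 50.7 CPM and at 28.6 against 59.6 CPM (-1.41 ± 0.23, adjusted p = 0.0020). Of 39 guidance genes tested, 4 were called higher and 1 lower. Over all genes tested, 1.33% were called higher and 1.1% lower. Besides Sema3e, the guidance genes called higher were Sema5b (1.28 ± 0.33) and the ephrin receptors Ephb1 (1.05 ± 0.23) and Ephb6 (0.85 ± 0.14). The list as a whole had a median log2 fold change of -0.11, with 13 genes higher and 18 lower in both sections.

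Myelin genes rose: 10 of 10 oligodendrocyte markers were called higher, with a median log2 fold change of 1.05. DESeq2 called 7 of the 10, and edgeR without the block 2, with medians of 1.07 and 1.06. Mbp, the myelin basic protein, stood at 1833 against 920 CPM in S4 and 2107 against 989 CPM in S8 (1.04 ± 0.07, edgeR adjusted p = 3.8e-08). Cldn11, a claudin of the myelin sheath, rose by 1.31 ± 0.11, and Mobp, a myelin-associated basic protein, by 1.27 ± 0.08. Mog, on the outer face of the sheath, rose least, by 0.77 ± 0.16. In sum the 10 genes made up 4353 CPM in the chosen spots against 2138 CPM elsewhere in S4, and 5551 against 2560 CPM in S8. The summed level per chosen spot ran from 1302 CPM at the 10th percentile to 7852 CPM at the 90th in S4. Against only those other spots in the upper part by Slc17a7 (450 in S4 and 411 in S8), the vesicular glutamate transporter of cortical excitatory neurons, the median was 1.09 and 10 of 10 were again called higher, as were 6 of the 11 corticothalamic genes. A larger share of oligodendrocytes in a spot and more myelin RNA per cell cannot be told apart, and the part of this difference in the other results was not tested.

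Some immediate early genes, which neurons switch on within minutes of activity, also rose. Of 15, 6 were called higher and none (0) lower, with a median log2 fold change of 0.42. DESeq2 called 3 of the 15, and edgeR without the block called 0, with a median of 0.41. Arc, a synaptic protein whose RNA follows activity, stood at 275 against 134 CPM in S4 and at 586 against 316 CPM in S8 (0.95 ± 0.09, edgeR adjusted p = 4.5e-06). The 2 sections differed in level, with Arc in the other spots of S8 above the chosen spots of S4. Junb rose by 0.78 ± 0.09, Ier2 by 0.73 ± 0.16, Egr1 by 0.52 ± 0.08, Nr4a1 by 0.51 ± 0.09 and Dusp1 by 0.46 ± 0.11. Fos itself (0.32) and Npas4 (0.13) were not called.

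Some genes of upper cortical layers fell. Of 7 superficial layer genes, 4 were called lower and all 7 were lower in both sections, with a median log2 fold change of -0.97. Of all 12109 genes tested, 3551 were lower in both sections. DESeq2 and edgeR without the block each called 1 of the 7. Calb1, the calcium-binding protein calbindin, stood at 73.8 against 223 CPM in S4 and 96.0 against 175 CPM in S8 (-1.25 ± 0.15, edgeR adjusted p = 6.2e-05). Cux2, a homeobox factor of upper layers, fell by 1.00 ± 0.22 on the log2 scale, Rasgrf2 by 0.97 ± 0.15 and Lamp5 by 0.67 ± 0.12. Slc17a6, the second vesicular glutamate transporter and 1 of 5 retrosplenial markers tested, stood at 11.7 against 28.5 CPM and at 12.9 against 28.2 CPM (-1.21 ± 0.29). Tshz2, a zinc finger factor of retrosplenial neurons, was at -0.76 ± 0.20 and did not pass (adjusted p = 0.053). None (0) of 3 layer 4 genes was called. All 3 were lower in both sections.

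The genes with the lowest log2 fold changes were rare in the chosen spots, so their size is poorly fixed. Ptpn14, a tyrosine phosphatase, had 1 count in all 200 chosen spots against 111 in the others, a level 13-fold lower with a 95% exact interval of 2.28 to 517 for counting error only. Vgll3, a cofactor of TEAD factors, had 2 against 121 counts, 7.08-fold lower with an interval of 1.92 to 59.1. Tox3, an HMG box protein, stood at 7.03 against 23.5 CPM in S4 and at 1.43 against 25.5 CPM in S8 (-2.43 ± 0.44, edgeR adjusted p = 0.0038). Also called lower were the cadherin Cdh7 (-2.22), Prkg2, a kinase driven by cyclic GMP (-2.19), the glycine receptor subunit Glra3 (-2.16), Tmem200a (-2.03), Boc, a co-receptor for Hedgehog ligands (-1.88), Phactr2 (-1.85) and Pkib, an inhibitor of protein kinase A (-1.78). Boc had 7 counts in the chosen spots and kept its call in 6 of 16 alternatives that gave it an adjusted p, and Tmem200a in 8.

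Calls were uneven over the lists of receptor and channel genes. Of 22 glutamate receptor genes 2 were called higher and 4 lower, and of 12 GABA A receptor genes 1 was called lower. Of 5 acetylcholine receptor genes 1 was called higher, as was 1 of 37 potassium and HCN channel genes. Over all genes tested, 1.33% were called higher and 1.1% lower. Among the glutamate receptors, the kainate receptor subunits Grik3 (1.20 ± 0.17) and Grik4 (1.12 ± 0.27) were called higher. The NMDA receptor subunit Grin3a (-1.19 ± 0.27) and the metabotropic receptors Grm2 (-1.43 ± 0.37), Grm7 (-1.24 ± 0.26) and Grm5 (-0.59 ± 0.12) were called lower. Grm2 had 2 counts in the chosen spots of S4 and 18 in those of S8. The main AMPA and NMDA receptor subunits Gria2 (0.03) and Grin1 (0.05) were not called. The GABA A receptor subunit Gabra2 fell by 1.02 ± 0.20 on the log2 scale. The nicotinic subunit Chrna4 rose by 0.86 ± 0.21, and the potassium channel Kcna6 by 0.65 ± 0.15. Of 15 neuropeptide genes, only Adcyap1, which encodes PACAP, was called (-1.63 ± 0.40), on 9 and 2 counts in the chosen spots.

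Some lists of other cell types and regions held called genes, a few with changes as large as those above, and other lists held none. For scale, 1.33% of all genes tested were called higher and 1.1% lower. The astrocyte genes Aqp4 (-1.12 ± 0.20), the water channel of astrocyte endfeet, and Slc1a3 (-0.42 ± 0.10), a glutamate transporter, were 2 of 6 called lower. DESeq2 and edgeR without the block called 0 of these 6. None (0) of 8 interneuron, 6 microglial, 6 vascular, 6 meningeal, 5 blood and 3 claustrum genes was called in edgeR. The interneuron list had a median of -0.34, with Sst, the peptide somatostatin, at -0.33 (adjusted p = 0.052). Of 5 genes of thalamus, Ramp3, a receptor activity modifying protein, rose by 1.41 ± 0.25 and Rora, a nuclear receptor, fell by 1.02 ± 0.21 on the log2 scale. Of 5 hippocampal genes Wfs1 was called lower, as was 1 of 3 striatal genes. Of 5 excitatory neuron genes, only Camk2a was called (-0.38 ± 0.08), and Slc17a7 was at 0.24 ± 0.07 (adjusted p = 0.11).

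**Figure D3:**
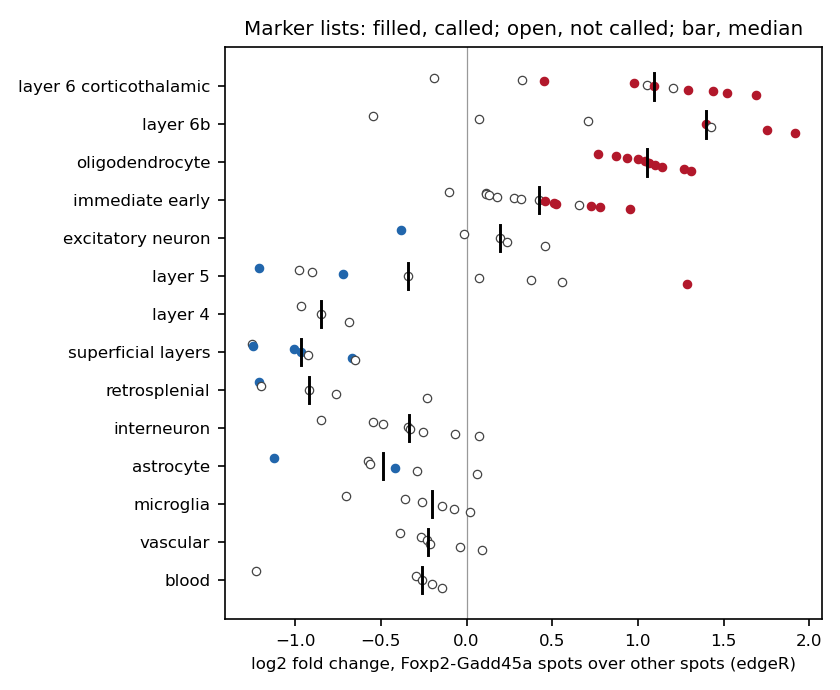
Log2 fold change (edgeR) of Foxp2-Gadd45a spots over other spots for each gene of 14 marker lists; filled points are called at adjusted p under 0.05, open points are not, and the bar is the list's median. All 10 oligodendrocyte genes lie to the right, 7 of 11 corticothalamic genes are filled on the right, and all 7 superficial layer genes lie to the left.

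The chosen spots were not all alike. Their levels are given here by the number of counts that chose them, as a description only, since that number also follows depth. In S4 the summed level of the 11 corticothalamic genes was 676 CPM in chosen spots with 1 count, 1129 CPM with 2 and 1391 CPM with 3 or more, against 540 CPM in spots with none. In S8 the steps were 670, 850 and 1406 CPM, against 491 CPM. Other spots with at least 1 count of the choosing genes stood at 628 CPM in S4 and 750 CPM in S8, the latter above chosen spots with 1 count. The layer 6b sum had no such order, at 211, 169 and 244 CPM in S4 and 211, 174 and 298 CPM in S8. Chosen spots with 1 count were also the shallowest, with a median total of 5397.5 in S4 and 5510 in S8. Superficial layer genes ran the other way, from 437 through 305 to 255 CPM in S4 and from 507 through 427 to 251 CPM in S8. The oligodendrocyte genes had no order in S4, with 5044, 3409 and 4863 CPM, and declined in S8 from 6303 through 5508 to 5110 CPM. Spots with Foxp2 had more corticothalamic RNA than chosen spots without it, 1365 against 1067 CPM in S4 and 1201 against 874 CPM in S8. For Rell1 the order differed between the sections, with 1249 against 1228 CPM in S4 and 941 against 1064 CPM in S8. The corticothalamic sum exceeded the median of the other spots in 89 of 100 chosen spots of S4 and 76 of 100 of S8, and it was 0 in 2 and 6 chosen spots.

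To place the Foxp2-Gadd45a spots among their neighbours, they were compared with 3 classes chosen in the same way: by Ccn2 and Nxph3 (layer 6b genes), by Rorb and Whrn (layer 4 genes) and by Tshz2 and Slc17a6 (retrosplenial genes). Spots in more than 1 class were left out, which left 66 and 62 Foxp2-Gadd45a spots in S4 and S8. The overlap was largest with the Ccn2-Nxph3 spots, at 24 and 26 of 100 spots. With Rorb-Whrn spots it was 5 and 9, and with Tshz2-Slc17a6 spots 6 and 5. All choosing genes were left out of the 8661 genes tested, and the 3 comparisons share the Foxp2-Gadd45a spots.

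The Ccn2-Nxph3 spots differed least. Of the genes tested, 24 (0.277%) were higher in Foxp2-Gadd45a spots and 27 (0.312%) lower by edgeR. Trbc2 stood at 139 and 141 CPM in Foxp2-Gadd45a spots of S4 and S8 against 43.1 and 59.3 CPM in Ccn2-Nxph3 spots (log2 fold change 1.46 ± 0.24, adjusted p = 2.7e-05). Ighm (1.17 ± 0.25), Igfbp4 (1.15 ± 0.24) and Rprm (0.82 ± 0.21) were also higher, whereas Tle4 (0.39 ± 0.22), Pcp4 (0.30 ± 0.10) and Hs3st4 (-0.08 ± 0.19) were not called. Over the 8661 genes tested, 2269 were higher in both sections. Of the 15 immediate early genes 6 were called higher and 14 were higher in both sections, among them Egr2 (1.72 ± 0.40), Arc (1.19 ± 0.15), Nr4a1 (1.14 ± 0.16), Junb (1.00 ± 0.16) and Egr1 (0.67 ± 0.13). Pak7, a p21-activated kinase (1.4 ± 0.27), Nefm, the medium neurofilament chain (1.25 ± 0.19), and Scn1a, a sodium channel (1.31 ± 0.33), rose with them. Lower were Nnat, the small proteolipid neuronatin, at 91.4 and 164 against 399 and 310 CPM (-1.53 ± 0.18, adjusted p = 2.1e-09), Etv1 (-1.35 ± 0.24), Gabra5 (-1.31 ± 0.25), the peptide gene Sst (-1.16 ± 0.14) and Cplx3 (-1.11 ± 0.28). A2ml1 (-1.57 ± 0.37), Mgp, the matrix Gla protein (-1.55 ± 0.34), and Ripor2 (-1.48 ± 0.31) were also lower. None (0) of the 10 oligodendrocyte genes was called, and Mbp stood at 1700 and 1565 against 1613 and 1802 CPM (-0.06 ± 0.10). Of 4 blood genes tested 2 were called lower, and of 7 interneuron genes 2. Their part in these results was not tested. Trbc2 kept its size but not its call with DESeq2 (1.45, adjusted p = 0.60) and with no block (1.46, adjusted p = 0.12). These calls were sensitive to the method: DESeq2 called 5 genes, and edgeR with no block gave 0, while 413 genes had an unadjusted p under 0.05.

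Against the Rorb-Whrn spots, 124 genes (1.43%) were higher and 144 (1.66%) lower. Bmp3, a bone morphogenetic protein (2.92 ± 0.52), Ighm (2.87 ± 0.30), Rai14 (2.79 ± 0.60) and Sptbn5 (2.63 ± 0.63) led the genes that were higher, together with Arhgap25, at 25 against 3 counts (10.1-fold, 95% exact interval 3.08 to 52.3). Of the 9 corticothalamic genes tested 7 were called higher and all 9 were higher in both sections, with Rprm at 1.81 ± 0.22, Hs3st4 at 1.67 ± 0.23 and Tle4 at 1.59 ± 0.25. Of all 8661 genes tested here, 2498 were higher in both sections. Pcp4 stood at 1475 and 1090 against 392 and 369 CPM (1.76 ± 0.11). Myelin genes were higher as well, 7 of 10, with Mbp at 0.96 ± 0.10. Lower were Prr16 (-2.83 ± 0.66), Tox3 (-2.66 ± 0.58), Thsd7a, a thrombospondin domain protein (-2.65 ± 0.44), Coch, the matrix protein cochlin (-2.56 ± 0.41), and Tmem200a, at 3 against 24 counts (6.60-fold lower, interval 2.00 to 34.2). Calb1 (-1.09 ± 0.19) and Cux2 (-1.34 ± 0.32) were lower too. None (0) of the 15 immediate early genes was called here by edgeR, and Arc was at 0.30 ± 0.13. DESeq2 called 38 genes, and edgeR without the block 68.

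Against the Tshz2-Slc17a6 spots, 210 genes (2.42%) were higher and 176 (2.03%) lower, the largest number of the 3 comparisons. Ighm (2.87 ± 0.30), Trbc2 (2.79 ± 0.27) and Col6a1, a chain of collagen VI (2.74 ± 0.68), were among the leading genes higher. Sptbn5 had 31 against 2 counts (18.1-fold, 95% exact interval 4.598 to 156) and Spsb1 22 against 3 (8.55-fold, 2.57 to 44.6). Rprm was at 2.44 ± 0.25, and 6 of 9 corticothalamic genes were called higher. The immediate early genes were higher in 10 of 15, with Arc at 1.45 ± 0.15, Junb at 1.34 ± 0.16 and Egr1 at 1.03 ± 0.13. Grm2 was lower (-2.82 ± 0.42), and so were 4 genes with 3 counts or fewer in Foxp2-Gadd45a spots: the neurotensin gene Nts (1 against 19 counts), Nit2 (2 against 21), C1ql2, a C1q-like synaptic organizer (3 against 35), and Ankrd34c (3 against 25). Myelin was closer, with 3 of 10 genes called higher and Mbp at 0.22 ± 0.10. Calb1 did not differ detectably (0.12 ± 0.22). DESeq2 called 68 genes, and edgeR without the block 75.

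**Figure D4:**
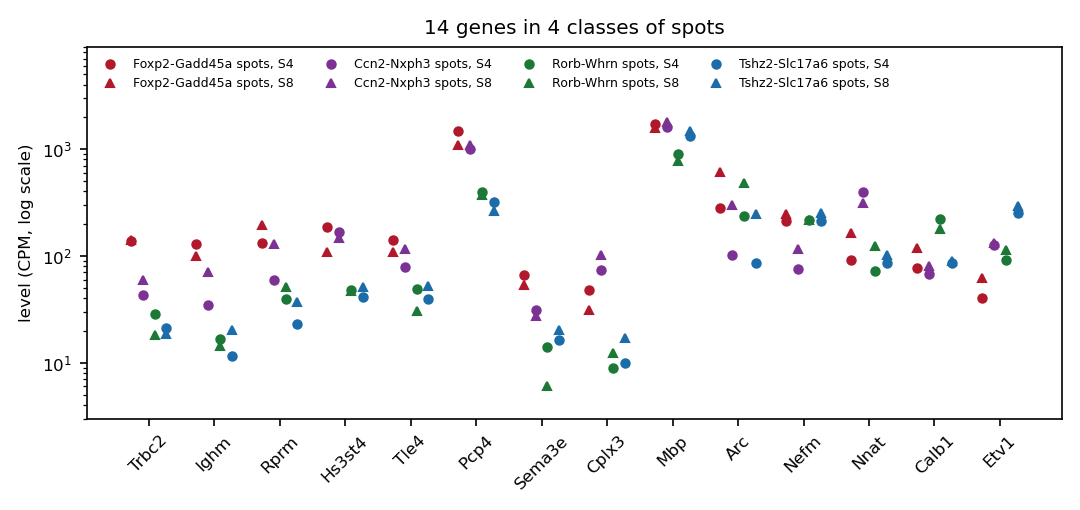
Level (CPM, log axis) of 14 genes in the 4 classes of spots, with circles for S4 and triangles for S8. Trbc2 and Ighm are highest in Foxp2-Gadd45a spots in both sections, Hs3st4 and Mbp are close in Foxp2-Gadd45a and Ccn2-Nxph3 spots, and Nnat and Cplx3 are highest in Ccn2-Nxph3 spots.

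In the dissociated neurons, cells with at least 1 count of Foxp2 and 1 of Syt6 were compared with all other cells, summed per animal. There were 14 such cells, 3, 5 and 6 in animals 1, 2 and 3, of 765. By edgeR with the animal as a block, 17 of 11562 genes (0.147%) were higher and 45 (0.389%) lower. The 5 leading genes were all ones that had risen in the spots. Ighm stood at 286, 370 and 644 CPM in the 3 animals against 22.5, 18.1 and 33.7 CPM in the other cells (log2 fold change 4.10 ± 0.36, adjusted p = 6.2e-06). Rprm stood at 649, 504 and 463 CPM against 26.4, 38.9 and 29.0 CPM (4.10 ± 0.34, adjusted p = 3.7e-06). Trbc2 stood at 363, 240 and 506 CPM against 35.1, 41.2 and 58.1 CPM (3.01 ± 0.36, adjusted p = 0.00024). Pcp4 stood at 3122, 2620 and 1556 CPM against 546, 315 and 190 CPM (2.87 ± 0.21), and Hs3st4 at 87.9, 230 and 257 CPM against 25.9, 27.0 and 18.5 CPM (2.93 ± 0.57, adjusted p = 0.018). Each of the 5 was higher in every animal, which the rule for naming genes required. Of all 11562 genes tested, 814 were higher in every animal. Hs3st4 lost its call without animal 2 (adjusted p = 0.12) or animal 3 (adjusted p = 0.20).

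The other 2 choosing genes, which the cell rule did not use, were not called: Gadd45a was at 2.05 ± 1.42 (adjusted p = 0.64) and Rell1 at 1.55 ± 1.12 (adjusted p = 0.66). Gadd45a stood at 5.50, 84.4 and 52.9 CPM against 9.91, 12.6 and 5.74 CPM, so that animal 1, with 1 count in 3 cells, went the other way. Tle4 stood at 104, 144 and 133 CPM against 24.0, 31.8 and 33.9 CPM and missed the threshold (2.09 ± 0.61, adjusted p = 0.25). Of the 9 corticothalamic genes tested 3 were called, namely Rprm, Hs3st4 and Igfbp4. Mbp, at 0, 33.7 and 51.6 CPM against 99.8, 107 and 82.9 CPM, was not higher in the cells as it was in the spots. Cplx3 was at 0, 0 and 2.58 CPM against 38.7, 51.0 and 0.16 CPM, with no common direction over the animals (adjusted p = 0.76). Arc was at 0.95 ± 0.56 (adjusted p = 0.53), and no immediate early gene (0 of 14) was called by edgeR.

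Of the genes called higher in spots, 140 were tested in the cells, and 14 of these (10%) were called higher there and none (0) lower, against 0.163% called higher over all 10455 genes tested in both. They were 14 of the 17 genes that rose in the cells (82.4%). Besides those above and Igfbp4 they included B3galt2, a galactosyltransferase (1.11 ± 0.14 in spots, 2.05 ± 0.43 in cells), Nptx1, the neuronal pentraxin (0.92 ± 0.09 and 1.86 ± 0.32), and Vxn, or vexin (1.30 ± 0.09 and 1.51 ± 0.24). Over all 10455 genes tested in both, 0.421% were called lower in the cells. Of the 117 genes called lower in spots and tested in cells, 24 (20.5%) were called lower there and none (0) higher. Among them were Mef2c, an activity-regulated transcription factor (-0.45 ± 0.08 and -1.89 ± 0.25), Rgs4, a regulator of G protein signalling (-0.46 ± 0.10 and -2.99 ± 0.35), and Nrep (-0.87 ± 0.16 and -2.94 ± 0.43). Calb1 had 3 counts in the 14 cells against 32635 in the others, and Etv1 had 1 against 17581. The median log2 fold change in cells was 0.68 for genes higher in spots, -3.03 for genes lower in spots and -0.64 over all genes, a scale on which genes with no count in 14 cells weigh heavily.

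**Figure D5:**
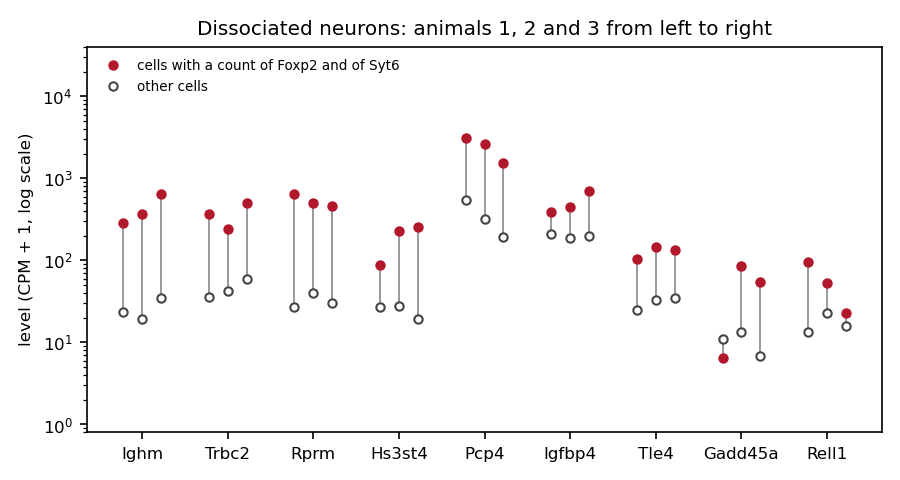
Level (CPM plus 1, log axis) of 9 genes in dissociated neurons with a count of Foxp2 and of Syt6 (filled) and in other cells (open), with animals 1, 2 and 3 from left to right for each gene. The filled points of Ighm, Trbc2, Rprm, Hs3st4, Pcp4, Igfbp4 and Tle4 lie above the open point of the same animal, while Gadd45a is reversed in animal 1.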

How the data were processed

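Whole-number counts, deposited by the authors without normalization (read from the values, whose totals vary between columns), give counts per gene for 1973 Visium spots and for 765 dissociated neurons. Per the submitters' processing notes, the builds NCBIM37 and mm10 and the tools Seurat and Space Ranger were used; the aligner, annotation and use of strand are not given in the sources used here. Spot columns name library 4 or 8, and which labelled section each is was not used. The animal of each cell came from the authors' deposited table of cells, whose other columns were not tested.

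CPM for the choice used each spot's total. Counts were summed per section or animal and class and compared by the quasi-likelihood test of edgeR 4.0.16 (R 4.3.3) after TMM scaling and its filter on low counts, section or animal being a block, with Benjamini-Hochberg adjustment over all genes and a threshold of 0.05. The SE is the log2 fold change divided by the square root of F. Each section holds both classes, so the section pairs the sums. Intervals cover counting error only. The tests were tried on data simulated with the same spread for every fit. The fitted spread (common dispersion) was 0.0023 for chosen against other spots and 0.52 for the cells, so that trial vouches for neither comparison. Between tables, 10084 of 11562 cell genes matched by name and 1015 through RefSeq synonyms (GRCm38.p6, names only). No doublet caller was run.

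The spots and gene lists were chosen with earlier results of these data known. Named genes are up to 15 called higher and 10 called lower with the largest log2 fold change and one direction in both sections, and up to 5 in each direction in the other fits (in cells, higher only), without predicted, ribosomal and mitochondrial genes; members of the lists are named besides. Genes that share reads with near-identical or overlapping genes are uncertain. Some genes that these rules name are not reported here.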

Additional observations from a re-analysis of the deposited data

How the results depend on the processing

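In the comparison with all other spots, 294 genes were called. The calls numbered 121 with a log2 fold change of at least 1, 68 with DESeq2 and 29 with no replicate block, and 452 with Gm42418 left out of totals, 458 with mean ranks in place of summed CPM and 471 with total counts in place of TMM. With alternatives chosen after seeing the data they numbered 507 for chosen spots with at least 2 counts of the 4 genes and 532 against other spots with 0 counts. All other settings stayed within 1.5 times. Of the 25 named genes 10 were called under each of the 17 settings that gave them an adjusted p, among them Trbc2 (log2 fold change 1.96 to 2.66) and Ighm (1.79 to 2.68). DESeq2 gave 19 of the 25 no adjusted p and called the other 6. No named gene changed direction. Against Ccn2-Nxph3 spots the 51 calls became 5 with DESeq2 and 0 with no replicate block, against Rorb-Whrn spots the 268 became 38 and 68, and against Tshz2-Slc17a6 spots the 386 became 68 and 75. In cells the 62 calls became 271 with DESeq2, 122 with no filter on low counts, 21 with no replicate block and, chosen after seeing the data, 20 for cells with a count of either gene. Without one animal they ran from 53 to 80. The cause was not tested. The sections are 2 and the cells 14, and genes under about 10 counts in the chosen spots have fold changes of wide error.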

Other observations

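Few relatives of the 4 choosing genes were called, and a missing call does not show that a gene was unchanged. Foxp1 (log2 fold change 0.14 ± 0.15, SE) and Foxp4 (0.03 ± 0.28), Gadd45b (0.46 ± 0.19) and Gadd45g (-0.35 ± 0.25), and Relt (0.82 ± 0.30) and Rell2 (-0.15 ± 0.14) were not called by edgeR in Foxp2-Gadd45a spots against other spots. Of 13 other synaptotagmins, only Syt17 was called, and it was lower. Over all genes tested, 1.33% were called higher and 1.1% lower. Syt17 was uneven, at 43.4 against 57.4 CPM in S4 and 22.9 against 69.4 CPM in S8. Its call lay just under the threshold (-0.88 ± 0.23, edgeR adjusted p = 0.0495). Syt1, the calcium sensor of fast transmitter release, was at 0.11 ± 0.07.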
